A study of Mus musculus with 12 samples.

Results

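The 8 genes described here are the Myc family members Myc, Mycn and Mycl, their shared partner Max, the RNA-binding proteins Lin28a and Lin28b, and Igf2bp1 and Hmga2, which are classical targets of the let-7 miRNAs that the LIN28 proteins restrain. They were taken by name, with earlier results of these data known, from 38911 genes whose transcript counts were summed per symbol. All 8 passed the filter on low counts, as did 16966 genes in all.

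MYC, MYCN and MYCL are basic helix-loop-helix leucine zipper factors that bind DNA as heterodimers with MAX and activate genes of ribosome assembly, nucleotide synthesis and growth. LIN28A and LIN28B block the maturation of let-7 precursors, and let-7 in turn binds messages such as Lin28a, Lin28b, Igf2bp1 and Hmga2 through its seed. Mycn and the Lin28 genes are well known in the embryo for high expression in epiblast-derived progenitors and in the tail bud.

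PolyA RNA was sequenced from gastruloids, aggregates of mouse embryonic stem (ES) cells that form a body axis in culture, collected on day 4. The cells were E14TG2a kept in 2iLIF with 200 cells plated per gastruloid, and gastruloids of every group had received the Wnt agonist CHIR before the media were changed. Between day 3 and day 4 the medium held no glucose (0X glucose), 21.25 mM glucose (1X glucose, the control), 63.75 mM glucose (3X glucose), or 1X glucose with 5 mM 2-DG, a glucose analog that blocks glycolysis and is also a mannose analog. Each of the 4 groups had 3 libraries, 1 from each of the ES cell passages 13, 15 and 16, so every passage supplied 4 libraries. Each library pooled gastruloids, all from 1 ES cell line, and the libraries of a passage are taken to share 1 ES cell culture, so p-values measure the spread between these 12 libraries, which may be partly technical. Library totals ran from 31902471 to 45956080 counts. Although the labels name the cell type as ES cells, the primitive streak marker T was at 64.6 to 330 CPM (counts scaled to a common library total) and the pluripotency gene Nanog at 1.02 to 5.12 CPM. In bulk RNA, fewer cells of a type and less RNA per cell cannot be told apart.

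The mature let-7 sequences and their matches in the 3′ UTRs are shown first because matches to the full seed lay in 4 of the 8 genes. All 9 mature let-7 and miR-98 sequences in the RefSeq table (GRCm38.p6) carried the same seed, given in capitals (bases 2 to 8) for 4 of them.
let-7a-5p: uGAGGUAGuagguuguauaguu
let-7d-5p: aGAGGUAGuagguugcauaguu
let-7e-5p: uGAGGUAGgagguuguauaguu
let-7g-5p: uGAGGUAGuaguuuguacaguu

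The motif CTACCTC, the complement of that seed, was searched on the transcribed strand of the 3′ UTR of each gene, taking of the transcripts with a RefSeq match the one with the longest 3′ UTR in the GENCODE M21 annotation of GRCm38. It was found in 8.5% of the 3′ UTRs of 19225 protein-coding genes, and 1.02% held 2 or more copies. Of the 8 genes, 4 held it, with 14 matches between them: Lin28a had 2, and Lin28b, Igf2bp1 and Hmga2 had 4 each. Myc, Mycn, Mycl and Max held none. Matches to only part of the seed were not searched, so these 4 genes are not shown to lack let-7 sites. UTR length differs between the genes, so each was set beside 3′ UTRs of 80% to 120% of its own length. At least as many matches were present in 2.25% of the UTRs as long as that of Lin28a (2775 bases), in 0.286% for Lin28b (4445 bases), in 0.44% for Igf2bp1 (6337 bases) and in 0.107% for Hmga2 (3014 bases). Among 3′ UTRs as long as that of Myc (442 bases) 3.32% held a match, against 6.76% for Mycn (913 bases), 9.16% for Max (1299 bases) and 12.8% for Mycl (1970 bases). For Hmga2 that transcript, NM_001347170.1, held 31.7% to 40.5% of the counts of the gene. Lin28a, Lin28b, Igf2bp1 and Hmga2 were already known as let-7 targets, so these shares do not test whether they hold more matches than other genes. These matches are a description of the letters and not evidence of binding in these gastruloids.

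The 7 matches followed by A, the form read most strongly by miRNAs, are printed with the seed match in capitals and named by gene and base of the 3′ UTR.
Lin28a base 909: gcacagcctgttgaaCTACCTCa
Lin28a base 1547: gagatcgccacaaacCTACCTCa
Lin28b base 36: acccgggcgggaagtCTACCTCa
Igf2bp1 base 1715: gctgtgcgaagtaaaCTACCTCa
Igf2bp1 base 4136: cagcagtgctattaaCTACCTCa
Igf2bp1 base 4730: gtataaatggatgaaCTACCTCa
Hmga2 base 58: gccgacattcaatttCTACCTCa

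On GRCm38, all on the minus strand, the Lin28a sites lay at chr4:134005189-134005211 and chr4:134004551-134004573 and the Lin28b site at chr10:45381022-45381044. The Igf2bp1 sites lay at chr11:95961778-95961800, chr11:95959357-95959379 and chr11:95958763-95958785, and the Hmga2 site at chr10:120364224-120364246.

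**Figure D1:**
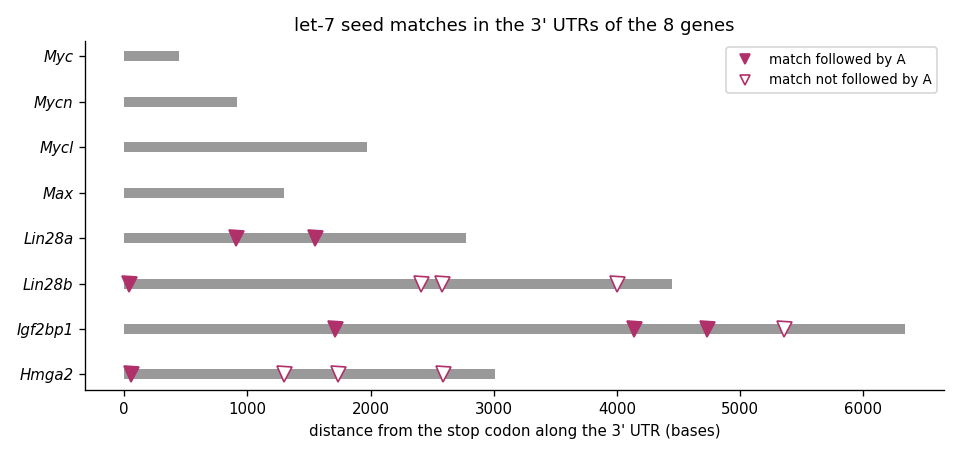
Position of let-7 seed matches along the 3′ UTR of each of the 8 genes, with the distance from the stop codon in bases on the horizontal axis and the UTR drawn to scale as a grey bar. Filled triangles are matches followed by A and open triangles the others; the 14 matches all lie in Lin28a, Lin28b, Igf2bp1 and Hmga2, and the first of Lin28b and of Hmga2 lie close to the stop codon, at bases 36 and 58.

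The transcripts searched span, on the same build, chr15:61985391-61990350 (plus strand) for Myc, chr12:12936093-12941914 (minus) for Mycn, chr4:122996099-123002485 (plus) for Mycl and chr12:76937269-76962185 (minus) for Max. Those of the other four lie on the minus strand, Lin28a at chr4:134003330-134018841, Lin28b at chr10:45376620-45470201, Igf2bp1 at chr11:95957163-96005940 and Hmga2 at chr10:120361275-120476469.

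Levels between genes were compared as CPM per kilobase of the transcript used above, since a longer message yields more counts. In 1X glucose Lin28a was highest at 183 ± 36.9 CPM per kilobase (SD, n = 3), followed by Hmga2 at 108 ± 23.2. Mycn at 52.4 ± 4.53, Max at 48.5 ± 5.29 and Igf2bp1 at 44.8 ± 10.9 CPM per kilobase came next, and these 3 did not differ beyond their spread. Lin28b followed at 33.1 ± 4.42 CPM per kilobase, then Myc at 25.2 ± 3.89 and Mycl at 20.5 ± 7.44, and the libraries of Myc and Mycl overlapped. Lin28a, the LIN28 protein that acts in the cytoplasm of early progenitors, was thus the most abundant of the 8 messages per length. With 2-DG the per-kilobase level of Mycn was 33.1 ± 4.53 and that of Max 44.1 ± 2.11. Mycn was above Max in each of the 3 1X glucose libraries, by little at passage 15 (55 against 54.6 CPM per kilobase), and below it in each of the 3 2-DG libraries. The counts of Lin28b were divided over 9 transcripts in the deposited files, and its level per kilobase depends on the length taken. The same limit holds for Hmga2, Max and Mycl. The transcript used held a median of 37.5%, 43.9% and 56.2% of their counts, so the order of Mycn and Max depends on length too.

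**Figure D2:**
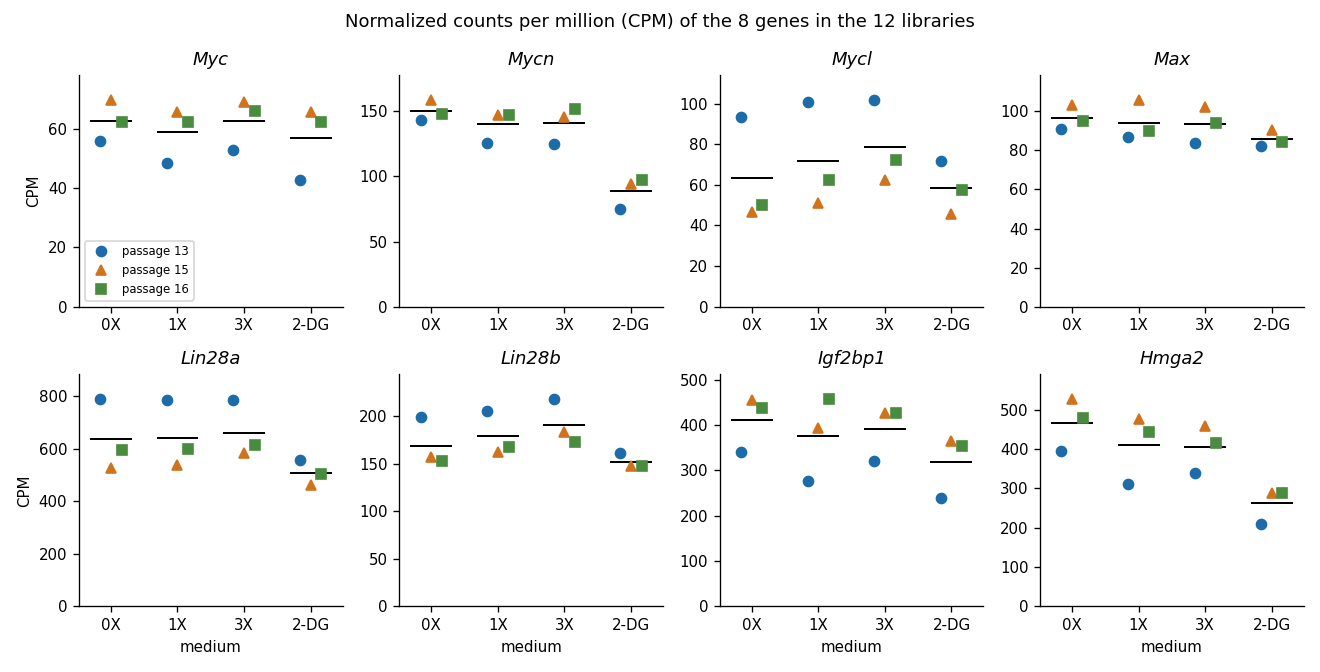
Normalized CPM (vertical axis, from 0) of each gene in the 4 media (horizontal axis), with 1 point per library, shaped by ES cell passage, and a bar at the mean of 3 libraries. The 2-DG libraries of Mycn (74.6 to 96.9 CPM) and Hmga2 (210 to 289 CPM) lie below all libraries of the other media. Those of Myc at passages 15 and 16 lie among them, while that of passage 13 (42.7 CPM) lies below them. Passage 13 stands apart within each medium for most genes.

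The first comparison asked whether 2-DG moved these genes relative to 1X glucose. Mycn and Hmga2 fell by 36.8% and 36.0%, whereas Myc, at −0.05 on the log2 scale, was not called. By edgeR's quasi-likelihood test with Benjamini-Hochberg adjustment over all genes and a threshold of 0.05, 2 of the 8 genes were called, and both were lower, beside 17.6% of all tested genes in either direction and 8.51% lower (9.12% were higher). All 8 log2 fold changes lay below 0, with a median of −0.27 against 0.00 over all genes. With passage as a block, which removes the difference between cultures, 7 of the 8 were called lower, all but Myc, beside 20.2% of all genes.

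Mycn, the family member typical of the epiblast and tail bud, was at 126, 147 and 147 CPM in the 1X glucose libraries of passages 13, 15 and 16 and at 74.6, 94.0 and 96.9 CPM with 2-DG. The groups did not overlap, and the 2-DG library was the lower one at every passage, by 41.0%, 36.0% and 34.0%. The log2 fold change was −0.66 ± 0.11 (SE) with an adjusted p of 0.00281 by the same edgeR test, and with any 1 of the 6 libraries dropped it was still called (adjusted p 0.00455 to 0.0132).

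Myc, the family member with the broadest use in growing cells, was at 48.6, 65.7 and 62.5 CPM in 1X glucose and at 42.7, 65.8 and 62.3 CPM with 2-DG. Passages 15 and 16 gave almost the same value in both media, while the passage 13 library fell by 12.3% with 2-DG, and the groups overlapped. The fitted difference was −0.05 ± 0.17 on the log2 scale (adjusted p 0.885 by the same test, 0.469 with the block), and it was positive in the fits without 1X glucose passage 15 (0.03) and without 2-DG passage 13 (0.12). The ratio of Mycn to Myc counts within a library, which does not depend on library size, was 2.60, 2.24 and 2.35 in 1X glucose and 1.75, 1.43 and 1.56 with 2-DG. The ratio was lower with 2-DG at every passage and the groups did not overlap. The difference was −0.60 on the log2 scale with a two-sided exact permutation p of 0.1, the smallest that 3 libraries against 3 allow, and 0.5 after Benjamini-Hochberg adjustment over 10 such tests.

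Mycl, the third family member, was at 101, 51.3 and 62.6 CPM in 1X glucose and at 71.9, 45.5 and 57.4 CPM with 2-DG. Passage 13 was highest in both media, and the groups overlapped. The log2 fold change was −0.30 ± 0.32 (adjusted p 0.586 by the same test) and −0.27 ± 0.09 with the block (adjusted p 0.0283). Without the 1X glucose library of passage 13 it was 0.03. Max, the obligate partner of all 3, was at 86.9, 106 and 89.9 CPM in 1X glucose and at 82.4, 90.3 and 84.5 CPM with 2-DG, lower at each passage but with overlapping groups. Its log2 fold change was −0.13 ± 0.09 (adjusted p 0.347 by the same test, 0.0176 with the block).

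Hmga2, a chromatin protein of the high-mobility group that marks undifferentiated and proliferating embryonic cells, was at 310, 477 and 443 CPM in 1X glucose and at 210, 289 and 288 CPM with 2-DG. Every 2-DG library lay below every 1X glucose library, by 32.2%, 39.3% and 35% at passages 13, 15 and 16. The log2 fold change was −0.64 ± 0.19 (adjusted p 0.0374 by edgeR's quasi-likelihood test) and −0.64 ± 0.05 with the block (adjusted p 6.74e-06). Without the block the call rested on all the libraries: dropping 1 library lost it in 5 of 6 cases, with adjusted p up to 0.125 (without 1X glucose passage 15), while the log2 fold change stayed between −0.81 and −0.51. Both Hmga2 transcripts in the files were measured, and NM_010441.3 held 59.5% to 68.3% of the counts of the gene.

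Lin28a was at 788, 540 and 600 CPM in 1X glucose and at 557, 461 and 504 CPM with 2-DG. The 2-DG library was lower at every passage, by 29.3%, 14.7% and 16%, although the 2-DG library of passage 13 stood above the 1X glucose library of passage 15. Lin28b, the paralog found more in nuclei and later tissues, was at 206, 162 and 168 CPM in 1X glucose and at 161, 148 and 148 CPM with 2-DG, and here the groups did not overlap. The log2 fold changes were −0.34 ± 0.18 for Lin28a and −0.23 ± 0.12 for Lin28b (adjusted p 0.217 and 0.230 by the same test). With the block they were −0.33 ± 0.05 and −0.22 ± 0.05, with adjusted p of 0.000830 and 0.00396. The ratio of Lin28b to Lin28a counts was 0.262, 0.299 and 0.281 in 1X glucose and 0.288, 0.320 and 0.294 with 2-DG, a difference of 0.10 on the log2 scale (exact permutation p 0.3, adjusted 0.5).

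Igf2bp1, which binds and stabilizes messages including that of Myc, was at 277, 393 and 457 CPM in 1X glucose and at 240, 364 and 354 CPM with 2-DG. It was lower at each passage, and the groups overlapped. The log2 fold change was −0.24 ± 0.21 (adjusted p 0.496 by the same test, 0.0123 with the block).

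**Figure D3:**
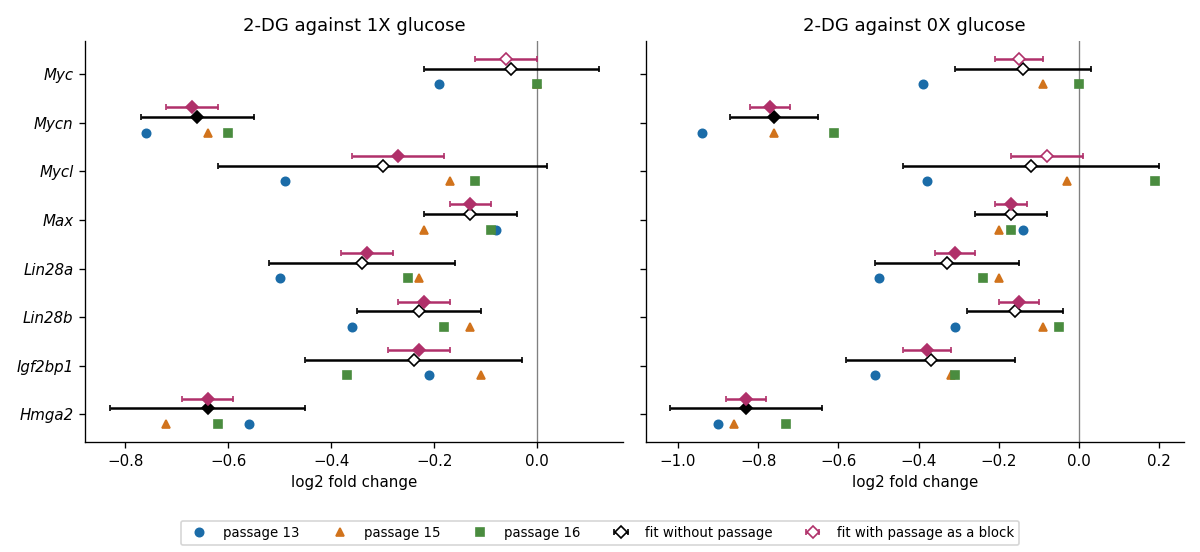
Log2 fold change of each gene with 2-DG against 1X glucose (left) and against 0X glucose (right). Round, triangular and square points are the ratios within passages 13, 15 and 16, diamonds are fits with bars of 1 SE without passage (black) and with passage as a block (red), and filled diamonds passed an adjusted p of 0.05. Mycn (−0.66 and −0.76) and Hmga2 (−0.64 and −0.83) stand farthest below 0 in both panels and were called in both fits.

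Marker genes of the cell types in a gastruloid moved with the same libraries. The summed level of 17 streak and presomitic mesoderm markers ran from 2467 to 2661 CPM in 1X glucose and from 1464 to 2047 CPM with 2-DG, and 4 of the 17 were called lower and none higher. T fell by 1.57 ± 0.36, Wnt3a by 2.72 ± 0.52, Mixl1 by 3.89 ± 0.42 and Hes7 by 0.74 ± 0.14 on the log2 scale. The summed level of 12 neural markers ran from 93.8 to 225 CPM in 1X glucose and from 168 to 364 CPM with 2-DG, with 4 of the 10 tested called higher, among them Irx3 (1.90 ± 0.35), Sox1 (1.84 ± 0.45) and Neurog2 (1.69 ± 0.39 on the log2 scale), and 1 lower, Nkx6-1 (−1.43 ± 0.26). A large part of the neural sum was Sox2, at 120, 43.3 and 42.1 CPM in 1X glucose and 156, 74.2 and 64.3 CPM with 2-DG. Sox2 was not called by edgeR without the block (0.52 ± 0.57, adjusted p 0.595), and was called higher with it (adjusted p 0.000181). Neurog2 and Nkx6-1 were low in 1X glucose, at 0.763 to 1.3 CPM and 0.637 to 1.0 CPM, and Dbx1 was at 0 in all 1X and 3X glucose libraries. Of 11 pluripotency markers, Tfcp2l1 rose (1.05 ± 0.27) and Dppa5a fell (−1.01 ± 0.21 on the log2 scale), and their sum was 198 to 235 CPM in 1X glucose and 214 to 232 CPM with 2-DG. Of 9 endoderm markers tested, Trh fell (−1.26 ± 0.36), with sums of 52.2 to 214 CPM and 54.9 to 105 CPM, and Afp was at 0 in every library. Of 5 markers of differentiated neurons tested, only Tubb3 was called and rose (1.40 ± 0.22), with sums of 35.4 to 68.7 CPM and 54.6 to 74.8 CPM. Elavl4 went the other way (−0.74 ± 0.53), while Elavl3 (0.57 ± 0.49), Map2 (0.64 ± 0.35) and Stmn2 (0.05 ± 0.32) lay above 0. With the block edgeR called Elavl4 lower (adjusted p 0.000266), called Tubb3, Elavl3 and Map2 higher, and did not call Stmn2. The part of such shifts in cell types in the lower Mycn and Hmga2 was not tested.

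Genes around the family were counted over lists of their known members. Of 40 genes that MYC proteins are known to activate, 14 were called lower and 3 higher, beside 8.51% and 9.12% of all genes, and the median log2 fold change of the list was −0.15 against 0.00. The block gave 22 lower and 6 higher, beside 20.2% and 21.1% of all genes. By size of change the first were Ccnd2, a D-type cyclin, which rose by 0.62 ± 0.10 on the log2 scale (324, 333 and 412 CPM in 1X glucose, 551, 525 and 563 CPM with 2-DG), and Rrp9, a factor of pre-rRNA processing, which fell by 0.44 ± 0.05 (90.3, 82.6 and 85.3 CPM against 62.9, 63.0 and 64.2 CPM). They were followed by Shmt2, the mitochondrial serine hydroxymethyltransferase, which rose by 0.44 ± 0.07, and Hk2, a hexokinase, which fell by 0.38 ± 0.07. The adjusted p of these 4 by the same test was between 0.000284 and 0.00584. The remaining higher gene was Odc1, of polyamine synthesis, which was named after its value was seen.

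Among 9 other members of the Max network, 1 was called, Mlxipl (ChREBP, a glucose-responsive factor that pairs with MLX), which rose by 2.12 ± 0.25 on the log2 scale (adjusted p 0.000541) from 1.82, 1.21 and 1.43 CPM to 6.73, 5.78 and 6.95 CPM. None of 8 genes of Myc protein turnover (ubiquitin ligases, deubiquitinases and kinases such as Fbxw7, Usp28 and Aurka) was called, and the block called 2 lower and 1 higher. Protein levels were not measured.

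Of 19 genes listed for let-7 processing, Tut1 fell by 0.26 ± 0.06 and Ddx17, a helicase of the Drosha complex, rose by 0.21 ± 0.04 on the log2 scale, and the list median was −0.00. Tut4 (0.15 ± 0.06, adjusted p 0.117 by the same test, 0.0105 with the block) and Tut7 (0.01 ± 0.06, adjusted p 0.924) were named after their values were seen. Of 14 let-7 host and hairpin transcripts, Mirlet7d alone passed the filter, with 9 to 23 counts per library and a log2 fold change of 0.06 (adjusted p 0.940). PolyA libraries of this kind do not hold mature miRNAs, so let-7 itself was not measured. Of 20 other known let-7 targets 19 were tested, 4 were called lower and 1 higher, beside 8.51% and 9.12% of all genes, and the list median was −0.14. Igf2bp2, a paralog of Igf2bp1, fell by 0.68 ± 0.13, with 164, 222 and 211 CPM in 1X glucose and 109, 133 and 130 CPM with 2-DG. Arid3b, a DNA-binding protein, fell by 0.35 ± 0.08 on the log2 scale, while Ccnd2 rose as given above. A match to the let-7 seed was present in the 3′ UTR of 14 of these 20 genes, which is no test because they were listed as let-7 targets.

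**Figure D4:**
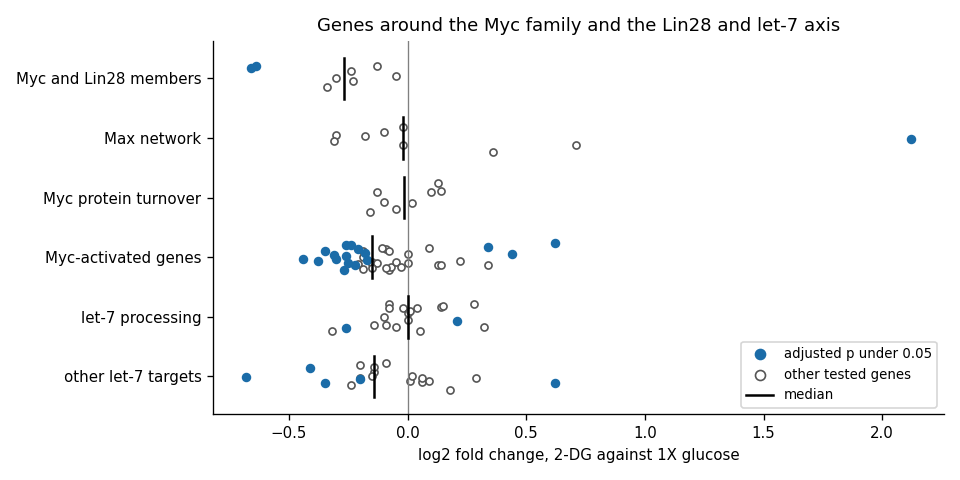
Log2 fold change with 2-DG against 1X glucose (horizontal axis) of the tested genes of 6 lists, with 1 point per gene, filled where the adjusted p was under 0.05, and a bar at the list median. The members' median was −0.27 and that of the Myc-activated genes −0.15. Mlxipl (2.12) stands farthest from 0 of all points plotted.

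The question whether withdrawing glucose moves the same genes was addressed by the 0X glucose libraries. None of the 8 was called against 1X glucose, where 0.0118% of all genes (2 genes) were called, and their log2 fold changes lay between −0.18 and 0.19. Mycn was at 143, 159 and 148 CPM and Hmga2 at 394, 526 and 479 CPM without glucose, both above 1X glucose at each passage. In 3X glucose Mycn was at 125, 146 and 152 CPM and Hmga2 at 338, 458 and 416 CPM. The Hmga2 libraries lay within the range of the other glucose media, and the passage 13 library of Mycn lay just below it. None of the 8 was called in 3X against 1X glucose, where 0% of all genes were called and the log2 fold changes lay between −0.02 and 0.14, nor in 3X against 0X glucose, where 0.0118% of all genes were called and they lay between −0.21 and 0.31. None of the 8 had an unadjusted p under 0.05 in these 3 comparisons by edgeR without the block, and DESeq2 called none. In 3X against 1X glucose, where no gene was called by edgeR, 178 genes had an unadjusted p under 0.05 and DESeq2 called 2. With the block none was called either, although 2 had an unadjusted p under 0.05 in 0X against 1X glucose, 0 in 3X against 1X glucose and 3 in 3X against 0X glucose. Beside these stood 1591, 876 and 2742 of the 16966 genes tested, in the same order. In these 3 comparisons the spread between passages was of the size of the differences or larger for several genes, as for Lin28a at 789, 529 and 595 CPM in 0X glucose.

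2-DG was also set against 0X glucose, both being conditions of blocked or absent glucose use. These libraries are the same 2-DG libraries as above, so the comparison is not independent. The same pair was called lower, Mycn with −0.76 ± 0.11 (adjusted p 0.00125) and Hmga2 with −0.83 ± 0.19 (adjusted p 0.0121) on the log2 scale by the same edgeR test, 2 of 8 beside 9.04% of all genes. For both, every 2-DG library lay below every 0X glucose library. At passages 13, 15 and 16 Mycn fell by 47.7%, fell by 41.0% and fell by 34.5%. Hmga2 fell by 46.6%, fell by 44.9% and fell by 39.9%. Both were still called with any 1 of the 6 libraries dropped, but Hmga2 was not called on its most abundant transcript alone (adjusted p 0.0878 by the same test). With the block 6 of 8 were called lower, beside 21.5% of all genes, namely these 2 with Max, Lin28a, Lin28b and Igf2bp1. The other two were Myc (−0.15 ± 0.06, adjusted p 0.0616) and Mycl (−0.08 ± 0.09, adjusted p 0.496). The ratio of Mycn to Myc was again lower with 2-DG, by 0.61 on the log2 scale (exact permutation p 0.1, adjusted 0.5).

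The ES cell passages were compared in a fit that also held the 4 media. Here the 8 genes split: in passage 15 against passage 13 all 8 were called, beside 41.8% of all genes, with 5 higher (20.8% of all genes) and 3 lower (20.9%). Against passage 13, passage 16 had 7 called, beside 40.2% of all genes, 4 higher (20.4%) and 3 lower (19.7%). The 4 libraries of a passage share 1 ES cell culture, so these tests compare 3 cultures and not passage numbers as such. With 1 culture per passage, the SE and p-values of these contrasts rest on the spread between libraries within a culture. They hold no spread between cultures of the same passage.

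Mycl showed the largest difference of the 8. It was at 71.9 to 102 CPM in the 4 libraries of passage 13 (median 97.5), at 45.5 to 62.2 CPM in passage 15 and at 50.2 to 72.3 CPM in passage 16. Passage 13 lay above passage 15 without overlap, and its lowest library, from 2-DG, lay within the range of passage 16. The log2 fold change was −0.85 ± 0.07 for passage 15 and −0.60 ± 0.07 for passage 16 against passage 13 (adjusted p 1.66e-05 and 0.000129 by the same test). Lin28a went the same way, at 557 to 789 CPM in passage 13 against 461 to 585 and 504 to 614 CPM, with log2 fold changes of −0.46 ± 0.05 and −0.33 ± 0.05. Lin28b, at 161 to 218 CPM in passage 13, 148 to 184 CPM in passage 15 and 148 to 173 CPM in passage 16, was lower by −0.27 ± 0.04 and −0.28 ± 0.04 on the log2 scale. In both Lin28 genes the 2-DG library of passage 13 fell within the range of the later passages.

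Igf2bp1, Hmga2 and Myc went the other way. Igf2bp1 was at 240 to 340 CPM in passage 13 and at 364 to 455 CPM in passage 15, with no overlap, and at 354 to 457 CPM in passage 16. Myc was at 42.7 to 55.8 CPM in passage 13, 65.7 to 69.9 CPM in passage 15 and 62.2 to 66.2 CPM in passage 16, again with passage 13 below all the others. The log2 fold changes for passages 15 and 16 against 13 were 0.48 ± 0.05 and 0.52 ± 0.05 for Igf2bp1 and 0.44 ± 0.05 and 0.35 ± 0.05 for Myc. Hmga2 differed by 0.48 ± 0.04 and 0.39 ± 0.04 on the log2 scale, although its 2-DG libraries at the later passages (289 and 288 CPM) stayed below 3 of the 4 libraries of passage 13. Mycn was higher by 0.23 ± 0.04 in both contrasts, and Max by 0.22 ± 0.03 in passage 15 and, uncalled, by 0.08 ± 0.03 in passage 16 (adjusted p 0.0821). The called differences had adjusted p between 1.48e-05 and 0.00159 by the same test. Without the 2-DG libraries the counts of called members were the same, 8 and 7. With the most abundant transcript alone, Mycn, Lin28a, Igf2bp1 and Hmga2 stayed called in both contrasts, while Myc, Mycl, Lin28b and Max were not called in either.

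**Figure D5:**
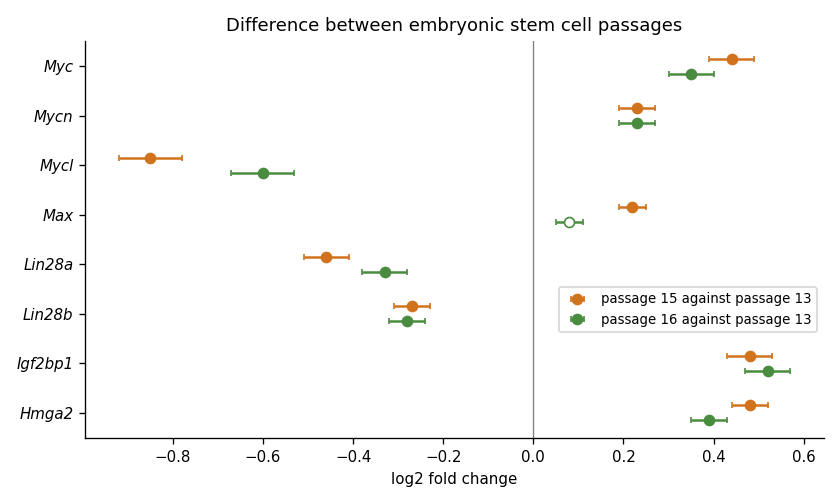
Log2 fold change (horizontal axis) of each gene in passage 15 (orange) and passage 16 (green) against passage 13, from the fit with medium, with bars of 1 SE and filled points where the adjusted p was under 0.05. Mycl, Lin28a and Lin28b lie left of 0 in both contrasts and the other 5 to the right, with Max in passage 16 (0.08) the 1 point that was not called.

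Passages 15 and 16 were close to each other. In passage 16 against 15, 1 of the 8 genes was called lower, beside 2.01% of all genes. It was Max, at 90.3 to 106 CPM in passage 15 and 84.5 to 95.0 CPM in passage 16 (log2 fold change −0.14, adjusted p 0.0396 by the same test), and dropping 1 library lost the call in 7 of 8 cases. DESeq2 called 2 of the 8, Max and Mycl. The log2 fold changes of the 8 lay between −0.14 and 0.24.

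The passages also differed in markers of cell types. Summed neural markers were at 196 to 364 CPM in passage 13, 103 to 189 CPM in passage 15 and 84.2 to 168 CPM in passage 16, with 6 of the 10 tested called lower in passage 15, among them Sox3 (−1.48 ± 0.10) and Sox2 (−1.25 ± 0.07 on the log2 scale). The 1 called higher was Olig2, at 0 CPM in passage 13 and 0.71 CPM in passage 15 of 1X glucose (adjusted p 0.000982 by the same test). Summed endoderm markers were at 46.5 to 54.9 CPM in passage 13 and 105 to 236 CPM in passage 15, with 6 of the 9 tested called higher, led by Cer1 (5.30 ± 0.52) and Sox17 (2.06 ± 0.16), and 2 lower, Epcam (−0.75 ± 0.10) and Gata4 (−0.57 ± 0.11), which were named after their values were seen. In 1X glucose Cer1 was at 0.615 CPM in passage 13 and 161 CPM in passage 15. Sox17 was low there, at 0.527 and 2.03 CPM, as were Foxa2 (0.351 and 0.947 CPM) and Gata6 (0.681 and 2.5 CPM). Streak and presomitic mesoderm markers summed to 1464 to 2788 CPM in passage 13 and 2047 to 2502 CPM in passage 15, and they were called in both directions. Mesp2 (2.41 ± 0.30), Mesp1 (1.47 ± 0.21), Lfng (1.33 ± 0.08), Dll3 and Dll1 were higher. Nkx1-2 (−1.38 ± 0.13), Cdx4, Cdx2, Wnt3a (−1.13 ± 0.24), Mixl1, T (−0.76 ± 0.19) and Fgf8 were lower. Of these, all but Mesp2, Mesp1, Lfng and Nkx1-2 were named after their values were seen. Of 5 markers of differentiated neurons tested all 5 were called lower in passage 15, led by Elavl4 (−1.14 ± 0.08), and of 11 pluripotency markers 7 were lower, such as Tdgf1 (−1.16 ± 0.29), and Klf4 was higher (0.99 ± 0.12). The part of these markers in the members' differences was not tested.

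The counts of called genes in the other lists stand beside 20.8% higher and 20.9% lower over all genes. Of the 40 Myc-activated genes 4 were called higher and 8 lower in passage 15, with a median of −0.01, led by Ldha, lactate dehydrogenase, at −0.38 ± 0.03 and Nop2, an rRNA methyltransferase, at 0.24 ± 0.04 on the log2 scale. Npm3, a nucleolar chaperone, followed at −0.23 ± 0.04 and Cad, of pyrimidine synthesis, at 0.22 ± 0.05. Of the 19 other let-7 targets tested 10 were higher and 3 lower, led by Thbs1 (1.24 ± 0.27, under 1 CPM in all 1X glucose libraries), Ccnd1 (−0.43 ± 0.05), Igf2bp2 (0.35 ± 0.04) and Trim71 (0.31 ± 0.07). Of the 19 let-7 processing genes 7 were higher and 2 lower, led by Ago2 (0.42 ± 0.06) and Khsrp (0.23 ± 0.05), and of the 9 genes of the Max network 5 and 1, led by Mxd4 (0.55 ± 0.06) and Mlxipl (−0.47 ± 0.15). Of the 8 Myc turnover genes 4 were higher, led by Gsk3b (0.32 ± 0.04) and Huwe1 (0.24 ± 0.05).

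The genes whose levels over the 12 libraries were most like each member were taken from 11969 genes with a mean of at least 100 counts, by Pearson correlation of log2 CPM. These correlations describe libraries that share media and cultures. Nearest to Mycn were Sik1 (r = 0.993), Csnk1e (0.991) and Nup93 (0.988), and nearest to Hmga2 were Nup153 (0.986), Sema6d (0.986) and Sestd1 (0.985). Among the members themselves Mycn and Hmga2 were alike (r = 0.948), and so were Lin28a and Lin28b (0.929), Lin28a and Mycl (0.907) and Myc and Igf2bp1 (0.919). Mycn and Myc were less alike (0.586), and Mycl and Myc ran opposite ways (−0.670). With the passage difference removed Mycl and Myc correlated at 0.597 and Mycn and Lin28a at 0.932 in place of 0.313. Nearest to Myc were Man2a1 and Camsap1 (both 0.967), to Mycl Oat, Sp8 and Igfbp3 (0.972 to 0.986), and to Max Arg1, Kin and Enpp3 (0.959 to 0.968). Nearest to Lin28a were Syk, Gad1 and Fam131b (0.974 to 0.981), to Lin28b Tril, Mfsd2a and Smim3 (0.980 to 0.985), and to Igf2bp1 Acvr2b, Rad54l2 and Phrf1 (0.985 to 0.988).

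The split of reads between transcripts of a gene varied between libraries for several members, and the values above are sums over transcripts. NM_010849.4 held 15.6% to 57.1% of the Myc counts, NM_001031772.2 31.1% to 80.5% of those of Lin28b, NM_001146176.1 36.7% to 62.4% of those of Max and NM_008506.3 35.5% to 69.6% of those of Mycl. Mycn and Igf2bp1 had 1 transcript each, and NM_145833.1 held 99.1% to 99.9% of the Lin28a counts.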

How the data were processed

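PolyA RNA of 12 libraries (4 media, 3 per medium) was sequenced from a directional kit. The authors trimmed reads with Trim Galore, aligned them with HISAT2 (mm10, per the labels), used SAMtools, removed duplicates with Picard and deposited StringTie expected counts per RefSeq transcript, all whole numbers. Versions, annotation release and strand setting are not given in the sources used here. Tables of the authors' fold changes and p-values were not used.

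All 120312 transcripts were assigned to symbols through the RefSeq table of GRCm38.p6 and summed to 38911 genes. Low counts were filtered with filterByExpr (16966 genes kept), TMM factors (0.977 to 1.03) were applied, and CPM were computed from the scaled totals. The members and lists were chosen with earlier results of these data known. The main test was edgeR 4.0.16 (R 4.3.3) quasi-likelihood on all 12 libraries in 4 groups, without passage, with Benjamini-Hochberg adjustment over all genes and a threshold of 0.05; SE is the log2 fold change over the square root of F. Passages were contrasted in a model with medium. Alternatives were passage as a block, no filter, a mean of at least 100 counts, median-of-ratios factors, DESeq2 1.42.0, the most abundant transcript alone, the groups compared alone, passages without 2-DG, and leaving out each library. The fits were tested on simulated data (for 2-DG against 1X glucose on 16674 genes, 87% of 100 genes changed by 1 on the log2 scale were recovered, and 13% of 100 changed by 0.5, with 9.09% of calls false; with the block, on 16681 genes, 100% and 90% were recovered, with 4.04% false). Only the simulation with the block held a passage difference, and its spread was set smaller. The shares thus do not compare the fits on the same data. Changed genes were drawn from those with a mean of at least 100 counts.

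The labels give each library a passage, taken here as 1 ES cell culture per passage, so passage pairs the libraries. Deviations from group means correlated at 0.0963 to 0.623 in the 18 pairs of the same passage and at −0.44 to 0.191 in the 36 others. Named were all 8 members, at most 4 genes per list with the largest called change in 2-DG against 1X glucose and in passage 15 against 13, and the 3 genes most like each member. Some genes that this rule names are not reported here. Seed matches were searched in the 3′ UTRs of GENCODE M21, and passage effects on log2 CPM were removed with limma 3.58.1. For the 8 members, totals of 31902471 to 45956080 counts per library leave the spread between libraries, rather than counting error, as the limit on precision. For genes with few counts, such as Mirlet7d and Olig2, counting error limits precision as well.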

Additional observations from a re-analysis of the deposited data

How the results depend on the processing

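With passage as a replicate block, the paired fit called 7 members in 2-DG against 1X glucose and 6 in 2-DG against 0X glucose, in place of 2 each, and 7001 and 7305 genes in place of 2990 and 3207; in 3X against 0X glucose it called 136 genes in place of 2. It changed no other call on a member. With the most abundant transcript alone, 1 member was called in 2-DG against 1X glucose, 1 in 2-DG against 0X glucose (Hmga2 being lost from both), 4 in passage 15 and 4 in passage 16 against 13, and 0 in passage 16 against 15. All-gene counts were then 653, 775, 1902, 1958 and 8 in these 5 comparisons; the cause was not tested. With that transcript alone the log2 fold change turned to 0.21 for Myc in 2-DG against 1X glucose, to 0.06 for Myc, 0.02 for Max and 0.004 for Lin28b in 2-DG against 0X glucose, and to −0.03 for Max in passage 16 against 13. In the groups compared alone, 1 member and 1896 genes were called in 2-DG against 1X glucose, Hmga2 being lost (adjusted p 0.0729). In passage 16 against 15, 0 members were called with no filter on low counts (326 genes in place of 713) and 2 by DESeq2, and 1328 genes were called without the 2-DG libraries. Leaving out 1 library gave 1 to 2 members called in 2-DG against 1X glucose (1734 genes without 1X glucose passage 15, and against 0X glucose 2051 without 0X glucose passage 15) and 0 to 1 in passage 16 against 15 (76 genes without 0X glucose passage 15). Without 1 library, against 1X glucose Myc ran from −0.17 to 0.12 and Mycl from −0.50 to 0.03, and against 0X glucose Myc from −0.25 to 0.04 and Mycl from −0.30 to 0.27. Myc turned to 0.12 (2-DG passage 13) and 0.03 (1X glucose passage 15), and Mycl to 0.03 (1X glucose passage 13), against 1X glucose. Against 0X glucose Myc turned to 0.04 (without 2-DG passage 13), and Mycl to 0.27 (without 0X glucose passage 13) and 0.03 (without 2-DG passage 15). None of these turned values passed the threshold. DESeq2 called 12 genes in 0X and 2 in 3X against 1X glucose and 31 in 3X against 0X glucose, none of them a member. Of 3 genes most like each member, at most 1 was kept by Spearman correlation for each of the 8 members. The varying split of reads between transcripts limits what a single transcript of Myc, Mycl, Max or Lin28b shows, and 3 cultures limit every statement on passages.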
